A study of Caenorhabditis elegans with 8 samples.

Results

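In whole Caenorhabditis elegans adults, 155 protein-coding genes were near-silent in control worms and detected at a low but higher level in worms fed double-stranded RNA against mtch-1. They were selected on the authors' normalized counts, by 4 limits, among the 20871 genes of the deposited table. Normalized counts are read counts divided by a size factor for each sample. A gene had to reach a mean of at least 10 in mtch-1(RNAi), at least 2 times the EV mean, with an EV mean under 20 and with the lowest mtch-1(RNAi) sample above the highest EV sample. These limits use the comparison itself, so the values of the members are a description and carry no test.

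The treated worms, mtch-1(RNAi), ate HT115 Escherichia coli that produced double-stranded RNA against mtch-1, and the control worms, EV, ate the same bacteria with the empty L4440 vector. Both groups were synchronised by egg-laying on their plates, which held ampicillin and 1 mM IPTG, and were kept at 20 °C. Expression in the bacteria was induced at 37 °C, over 3 h, with 5 mM IPTG. About 200 adults per sample were frozen on day 3 of adulthood, with 4 samples per group, and the strain is not given in the sources used here. Whole worms were used, so more cells of a type and more RNA per cell cannot be told apart.

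As background, mtch-1 encodes a worm member of the mitochondrial carrier homologs, proteins of the outer mitochondrial membrane, and in human cells a related protein, MTCH2, inserts other proteins into that membrane. A large share of the worm's genes gives little RNA in a whole adult, because they are used in a few neurons, in larvae, in males or during sperm production, or after infection. Chemoreceptors, C-type lectins, F-box genes and nuclear hormone receptors form large families of this kind in this species.

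Total counts were 20626184 to 22748868 per mtch-1(RNAi) sample and 18710833 to 23608608 per EV sample. Genes with at least 1 count numbered 17869 to 18224 in mtch-1(RNAi) and 17241 to 17655 in EV, with no overlap between the groups. mtch-1 itself had 1048, 1218, 716 and 949.9 normalized counts in mtch-1(RNAi) replicates 1 to 4, against 5528, 5998, 5762 and 6068 in EV, in the direction its labels give (log2 fold change -2.56, SE 0.12; edgeR adjusted p = 8.6e-08). The labels do not say whether the samples of a group came from separate cultures, so the p-values given below reflect the spread among the samples alone, and that spread may be technical.

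Of 18269 protein-coding genes, 6960 had an EV mean under 20. Among those, 1586 reached a mean of 10 in mtch-1(RNAi), 258 of these were also at least 2 times the EV mean, and 157 of these did not overlap between the groups, which is 2.26% of the near-silent genes. Among the 157, 2 inducible heat shock genes, of 6 such genes that the rule leaves out by name, were set aside, which left 155. With the roles of the groups exchanged, 27 genes met the same limits, or 0.406% of the 6648 protein-coding genes with an mtch-1(RNAi) mean under 20. Among all 2561 protein-coding genes with an 8-sample mean between 5 and 20, a range that does not favour either group and was chosen after the data were seen, every mtch-1(RNAi) sample lay above every EV sample in 177 (6.91%) and below every EV sample in 32 (1.25%). Of those 177 genes, 97 were members, which the limits had selected for this lack of overlap, so these counts carry no test. Over protein-coding genes of any level, the counts were 1637 (8.96%) and 1956 (10.7%). As a description, the higher direction was thus the more frequent at low levels and not over all genes. The number of genes detected also differed between the groups, as given above, and its part in these counts was not tested.

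**Figure D1:**
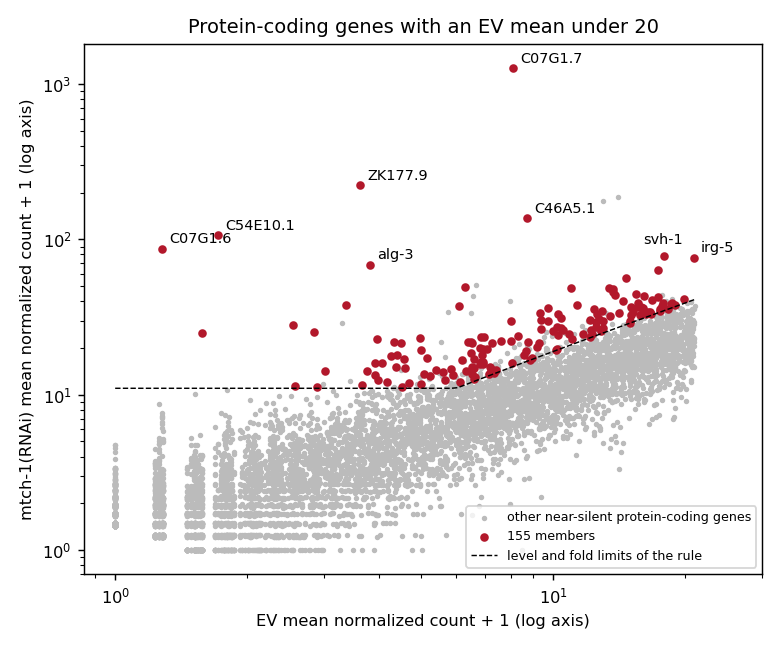
Mean normalized count + 1 in mtch-1(RNAi) (vertical, log axis) against EV (horizontal, log axis) for the 6960 protein-coding genes with an EV mean under 20, where each point is a gene and the dashed line marks the level and fold limits. The 155 members (red) lie above the line, most of them close to it, and C07G1.7 lies far above the rest at a mtch-1(RNAi) mean of 1267.

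Most members stayed at a low level. The mean in mtch-1(RNAi) was 10 to 20 normalized counts in 58 genes, 20 to 50 in 87, and 50 or more in 10, of which 4 reached 100. The median member had 23.6 normalized counts in mtch-1(RNAi) and 7.65 in EV. Per gene length, the medians were 1.06 FPKM in mtch-1(RNAi) and 0.327 FPKM in EV (fragments scaled to gene length and library size, as deposited), and 81 members in mtch-1(RNAi) and 12 in EV had a mean of 1 FPKM or more. The ratio of group means was 2 to 3 in 86 genes, 3 to 5 in 48, 5 to 10 in 11 and 10 or more in 10, with a median of 2.82. No member was at 0 in all EV samples, 13 were at 0 in at least 1, and 3 had an EV mean under 1.

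Summed over the members, the replicates of a group lay close together. The sums were 6049, 5415, 5104 and 6096 normalized counts in mtch-1(RNAi) and 1299, 1349.6, 1277 and 1374 in EV. C07G1.7 alone supplied 22.4% of the summed mtch-1(RNAi) means, and the 5 most abundant genes supplied 32.1%. Without C07G1.7 the sums averaged 4399 ± 369 in mtch-1(RNAi) and 1318 ± 42.6 in EV (SD, n = 4 each). The whole set took 0.0279 ± 0.00274% of the counts in mtch-1(RNAi) and 0.00618 ± 0.000123% in EV.

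Single members varied more than the sum. The median coefficient of variation over the 4 mtch-1(RNAi) samples was 26.2%. Replicates 1 and 4 held the highest value of 51 and 53 members, and replicates 2 and 3 that of 24 and 27. The lowest mtch-1(RNAi) value fell in replicates 2 and 3 for 55 and 51 members, and in replicates 1 and 4 for 27 and 22.

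**Figure D2:**
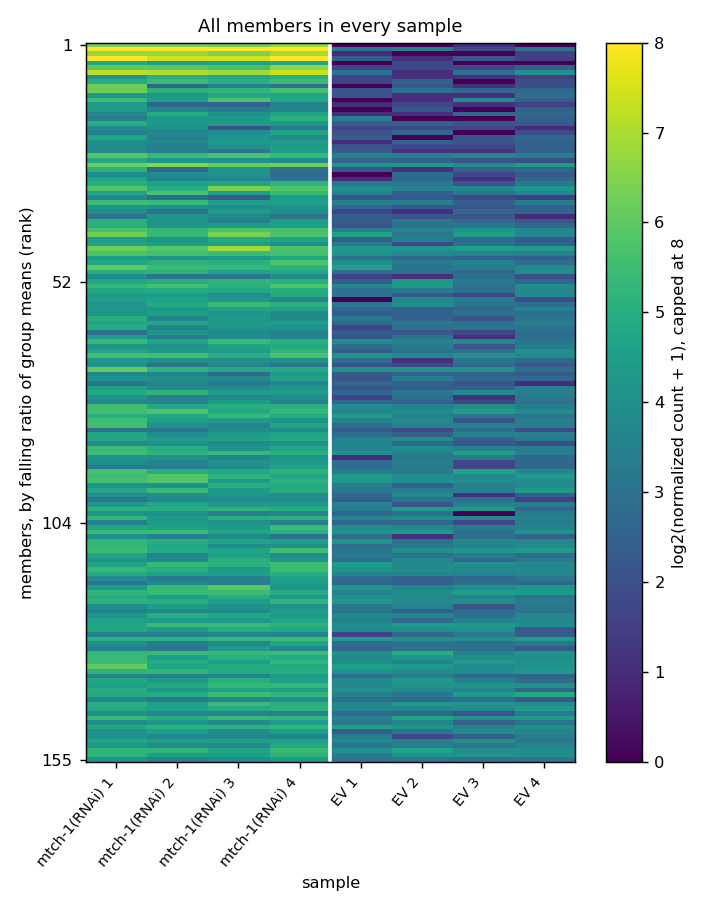
log2(normalized count + 1) of the 155 members (rows, by falling ratio of group means) in the 4 mtch-1(RNAi) samples on the left and the 4 EV samples on the right, with the colour scale capped at 8. The rows at the top are dark in EV and bright in all mtch-1(RNAi) samples, while most rows differ by less than 3-fold, as 86 members have a ratio of 2 to 3.

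By edgeR's quasi-likelihood test with Benjamini-Hochberg adjustment over all 13252 genes tested, 117 members were called higher, where 10% of all genes tested were called higher and 13% lower. The limits used the same contrast, so nothing is read from this count. A further 10 members were tested and not called, and 28 had too few counts to enter the test. The authors' deposited table gives 114 members an adjusted p under 0.05. The median log2 fold change was 1.45 among the 127 members tested and 0.01 over all genes tested.

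The highest level by far was that of C07G1.7, a gene with no symbol in the annotation used here. It had 1237, 1365, 976 and 1492 normalized counts in mtch-1(RNAi) replicates 1 to 4, against 8.28, 10.4, 2.24 and 7.38 in EV, a ratio of means of 179. Every mtch-1(RNAi) sample lay far above every EV sample, and replicate 3 was the lowest in both groups. In FPKM it averaged 87.1 ± 15.5 in mtch-1(RNAi) and 0.485 ± 0.237 in EV (SD, n = 4 each), which placed it at rank 1573 and rank 12480 of the 18269 protein-coding genes. It was the only member with more than 300 normalized counts in any sample.

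C07G1.7 lies within svh-1, a gene that is itself a member, and so does C07G1.6. The locus is on chromosome IV of WBcel235, where svh-1 spans chrIV:8206614-8213741 on the plus strand. C07G1.7, at chrIV:8210906-8211847 on the minus strand, sits wholly inside intron 10 of svh-1, an intron of 1607 bases, and shares no exon base with it. C07G1.6, at chrIV:8209156-8210400 on the minus strand, shares 162 of its 762 exon bases with svh-1. Strandedness of the libraries is not given in the sources used here, so reads from those 162 bases cannot be assigned to one strand.

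C07G1.6 was almost unread in control worms. It had 82.1, 80.0, 77 and 105 normalized counts in mtch-1(RNAi), and in EV 1.12 in replicate 3 and 0 in the other replicates. The raw counts were 366 over the mtch-1(RNAi) samples and 1 over the EV samples, a depth-scaled ratio of 327 with an exact 95% interval of 58.4 to 12957 that covers counting error only. Such intervals, here and below, are given only for the members with the fewest EV counts. They leave out the spread between samples and use the values that selected the members, so they carry no test. svh-1 encodes a secreted growth factor known for its role in axon regeneration. It had 72.5, 89.3, 69.2 and 76.7 normalized counts in mtch-1(RNAi) and 15.5, 18.5, 13.4 and 20.3 in EV, with a mean of 1.15 FPKM in mtch-1(RNAi) and 0.254 FPKM in EV. The ratio was thus 4.54 for svh-1 and far larger for both genes inside it. The next gene upstream, hgrs-1, which encodes a protein of the endosomal sorting machinery, is no member and fell slightly (log2 fold change -0.32, SE 0.05; edgeR adjusted p = 0.00085).

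**Figure D3:**
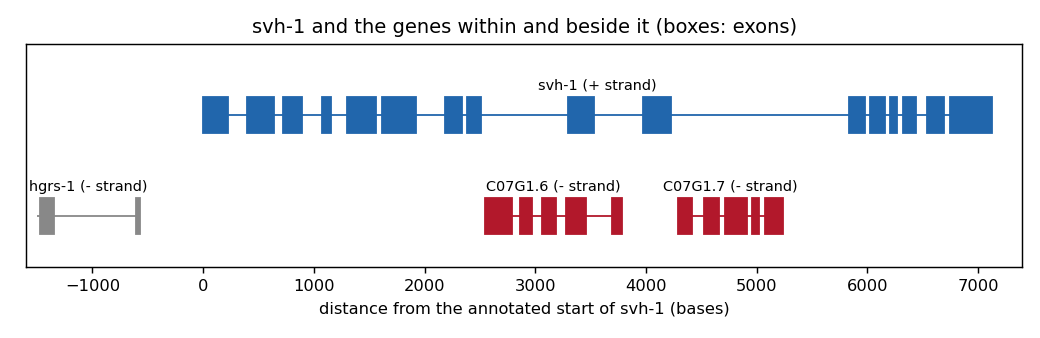
Exons (boxes) of svh-1 on the plus strand (upper row) and of C07G1.6, C07G1.7 and the near end of hgrs-1 on the minus strand (lower row), against distance in bases from the annotated start of svh-1. C07G1.7 falls wholly inside the 1607-base intron 10 of svh-1, and C07G1.6 overlaps an svh-1 exon.

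ZK177.9 was second in level. Its normalized counts were 272, 173, 173 and 272 in mtch-1(RNAi) and 4.14, 1.15, 3.36 and 1.85 in EV, a ratio of 84.8, and 21.1 ± 5.53 FPKM in mtch-1(RNAi) and 0.248 ± 0.129 FPKM in EV (SD, n = 4 each). It lies at chrII:5517157-5517743 on the minus strand, and 62 of its 484 exon bases overlap ZK177.3 on the plus strand, which averaged 4.85 normalized counts in mtch-1(RNAi) and 3.08 in EV. C46A5.1 carries a tyrosine phosphatase domain in the file's annotation and lies at chrIV:7763931-7767112. It had 144, 130.2, 113.1 and 158 normalized counts in mtch-1(RNAi), against 7.24, 1.15, 6.71 and 15.7 in EV, a ratio of 17.7. Both genes were separated by more than the whole range of either group.

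Among the members with ratios of 10 or more were 2 with a known or annotated link to sperm. alg-3 encodes an Argonaute that binds a class of small RNAs needed for sperm production, and lies at chrIV:11704246-11708264. It had 62.9, 61.4, 49.7 and 97.3 normalized counts in mtch-1(RNAi) and 2.07, 2.31, 2.24 and 4.61 in EV, a ratio of 24.2. The other, C54E10.1, has a major sperm protein domain in the file's annotation and is a pseudogene in the Ensembl annotation used here. It had 107, 109.8, 83.8 and 121.9 normalized counts in mtch-1(RNAi), against 1.03, 0, 0 and 1.85 in EV. Its raw counts were 450 in mtch-1(RNAi) and 3 in EV, a depth-scaled ratio of 134 with an exact 95% counting interval of 45.6 to 653. A further member with a ratio of 10 or more, Y19D10B.4, has the same length in the file and is also a pseudogene. It had 27 ± 7.29 normalized counts in mtch-1(RNAi) and 1.55 ± 0.483 in EV (SD, n = 4 each). The sequences of C54E10.1 and Y19D10B.4 were not compared. How reads that match more than 1 gene were counted is not given, so their separate levels are uncertain.

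The sperm markers gave a measure of that cell type in the same samples. Of 20 sperm marker genes in the table, 6 had enough counts to be tested and 1 was called higher, spe-41, a channel gene of sperm (log2 fold change 1.13, SE 0.11; edgeR adjusted p = 4.6e-05). With the replicate number as a block 2 were called higher. spe-41 averaged 364 ± 26.8 normalized counts in mtch-1(RNAi) and 168 ± 20.5 in EV (SD, n = 4 each). The list summed to 1144 to 1167 normalized counts in mtch-1(RNAi) and 850 to 935 in EV, without overlap. spe-41 with spe-44 and spe-15, neither of them called, made up most of it. spe-44 averaged 493 in mtch-1(RNAi) and 472 in EV, and spe-15 averaged 224 in mtch-1(RNAi) and 185 in EV. The difference between the sums thus came mostly from spe-41, and a sum without it was not taken. The defining markers were near 0 in both groups: gsp-3, a phosphatase gene of sperm, averaged 0.492 in mtch-1(RNAi) and 0.259 in EV, and 8 of the 9 msp genes averaged under 3 in each group. The part of sperm in the levels of alg-3 and C54E10.1 was not tested.

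Ratios of 10 or more were also found in F33H12.1, Y106G6G.4 and W09B7.2. F33H12.1, which has a BRCT domain in the file's annotation, had 26.2, 21.4, 23.4 and 25.6 normalized counts in mtch-1(RNAi) and 0, 2.31, 0 and 0 in EV. With 103 raw counts in mtch-1(RNAi) and 2 in EV, its depth-scaled ratio of 46 had an exact 95% counting interval of 12.4 to 385. Y106G6G.4 had 29.7, 42.8, 31.2 and 44.2 in mtch-1(RNAi) and 2.07, 4.61, 0 and 2.77 in EV, and it lies inside Y106G6G.2, whose means were 16.7 in mtch-1(RNAi) and 16.2 in EV. F33H12.1 and Y106G6G.4 were thus fairly even across the mtch-1(RNAi) samples, while their EV values, 4.61 or lower, were too low to judge. W09B7.2 was not: it had 74.2, 5.58, 10.7 and 6.88 in mtch-1(RNAi) and 0, 3.46, 1.12 and 2.77 in EV. Replicate 1 supplied most of its mean, and without it the mean in mtch-1(RNAi) was 7.73 ± 2.67 (SD, n = 3), a ratio of 4.21 to EV. A gene that shares its name in the annotation, F07B7.2, had at most 1.86 normalized counts in a mtch-1(RNAi) sample and 3.69 in an EV sample.

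Below a ratio of 10, the next by ratio were cdh-7, K09B11.5 and F17B5.1. C54C8.12, a short gene with no symbol, stood at a ratio of 3.81 but among the 10 most abundant, with 74.2, 39.1, 80.9 and 54.1 normalized counts in mtch-1(RNAi) and 23.8, 8.07, 21.3 and 12 in EV. cdh-7 encodes a cadherin, a class of cell adhesion protein, and had 72.5, 34.4, 37.0 and 49.2 normalized counts in mtch-1(RNAi), against 3.10, 6.92, 5.60 and 5.54 in EV, a ratio of 9.13. K09B11.5, with a tyrosine kinase domain in the file's annotation, averaged 21.7 ± 4.56 in mtch-1(RNAi) and 2.96 ± 2.51 in EV (SD, n = 4 each). F17B5.1 averaged 36.1 ± 14.8 in mtch-1(RNAi) and 5.08 ± 6.61 in EV, where replicate 3 alone reached 14.5.

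**Figure D4:**
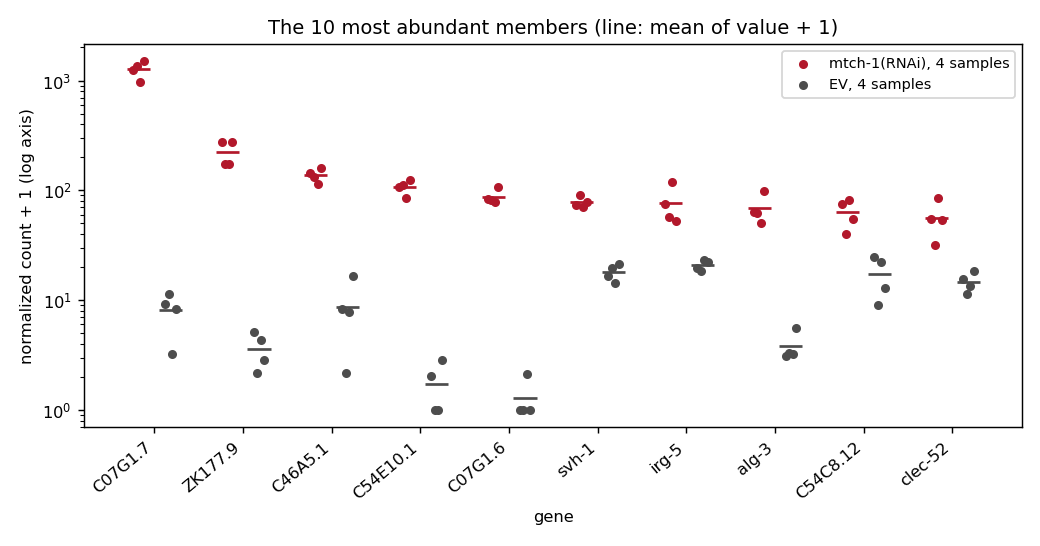
Normalized count + 1 (vertical, log axis) of the 10 most abundant members in the 4 mtch-1(RNAi) samples (red, left) and the 4 EV samples (grey, right), where each point is a sample and the line is the group mean. The groups are separate in all 10 because the limits require it, and the ratio of means is 179 in C07G1.7 and 3.78 in irg-5.

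Defence genes made up 7 members, 2 irg genes and 5 C-type lectins. Of 188 C-type lectin genes 130 were near-silent in EV, and of 18 irg and dod genes 4 were. Of all near-silent genes, 2.26% met the limits. The irg genes are named for their induction by infection, and C-type lectins are carbohydrate-binding proteins, many of them secreted from the gut. irg-5 had 74.2, 56.7, 119 and 51.1 normalized counts in mtch-1(RNAi) and 18.6, 17.3, 22.4 and 21.2 in EV. clec-52 had 54.1, 30.7, 83.8 and 52.1 in mtch-1(RNAi) and 14.5, 10.4, 12.3 and 17.5 in EV. Replicate 3 was the highest for both, as it was for 6 of the 7 defence members, and replicate 2 was the lowest mtch-1(RNAi) sample for 5 of them. clec-227, clec-232, clec-210 and clec-78 had ratios of means between 2.88 and 3.84, and irg-6 had 13.9 ± 5.36 in mtch-1(RNAi) and 3.59 ± 2.31 in EV (SD, n = 4 each).

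Their relatives were called in both directions, where 10% of all genes tested rose and 13% fell. Of the 79 other C-type lectins tested, 4 rose and 15 fell, with a median log2 fold change of -0.10. Of the 14 other irg and dod genes tested, 3 rose and 4 fell. Beyond these families, of 12 intracellular pathogen response genes tested, 1 rose (zip-1, a transcription factor gene, log2 fold change 0.44) and 2 fell (skr-4 and drh-1, at -0.50 and -0.31). Of 22 antimicrobial peptide genes tested, abf-2 rose (0.85) and spp-2 and spp-3 fell (-0.43 and -0.61). With the replicate number as a block, 9 antimicrobial peptide genes rose and 3 fell, where that fit called 15% of all genes tested higher and 17.1% lower.

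F-box genes, whose products bring proteins to ubiquitin ligases, were the largest family among the members, with 7 of 289 genes. Of the 289, 164 were near-silent in EV and so could be members, and 2.26% of all near-silent genes met the limits. The most abundant were fbxb-101, fbxa-94, fbxb-10 and fbxb-8. fbxb-101 had 41.9, 43.7, 24.4 and 32.4 normalized counts in mtch-1(RNAi) and 15.5, 19.6, 6.71 and 16.6 in EV, and fbxb-8 averaged 25.4 ± 7.53 in mtch-1(RNAi) and 8.37 ± 5.04 in EV (SD, n = 4 each). Among the 194 other F-box genes tested, 13 rose and 9 fell, with a median log2 fold change of 0.13. Over all genes tested, 10% rose and 13% fell. MATH and BTB domain genes, whose products can serve as adaptors of ubiquitin ligases, had 3 members of 86 genes, bath-13, math-38 and math-1. Of the 86, 26 were near-silent in EV. math-38 had 31.4, 27, 40 and 29.5 in mtch-1(RNAi) and 20.7, 10.4, 7.83 and 7.38 in EV.

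Chemoreceptors formed the largest near-silent family. Of 689 chemoreceptor-type genes in the table, 672 had an EV mean under 20 and 2 were members, str-144 and str-171, which is 0.298% of those 672 genes beside 2.26% of all near-silent genes that met the limits. The limits ask for a mean of at least 10 in mtch-1(RNAi), and of the 687 other genes of the family only 31 had enough counts to be tested. The low share is therefore no measure of how the family responded. Of those 31, 0 rose and 4 fell (12.9%), where 10% of all genes tested rose and 13% fell. str-144 had 30.6, 21.4, 30.2 and 18.7 normalized counts in mtch-1(RNAi) and 13.5, 12.7, 11.2 and 7.38 in EV, and str-171 averaged 17.5 ± 3.90 in mtch-1(RNAi) and 5.48 ± 1.29 in EV (SD, n = 4 each). Nuclear hormone receptors, ligand-dependent or orphan transcription factors, had 2 members of 245 genes, nhr-81 and nhr-127. Of the 245, 93 were near-silent in EV. nhr-81 had 20.1, 20.5, 13.6 and 27.5 in mtch-1(RNAi) and 7.24, 3.46, 2.24 and 12 in EV. No cytochrome P450, neuropeptide, insulin-like peptide or pals gene was a member, of 26, 25, 23 and 26 near-silent in EV. With 2.26% of all near-silent genes meeting the limits, families this small can lack members without differing from the rest. Of those tested, 11 of 57, 2 of 89, 1 of 18 and 0 of 15 rose, and 1, 1, 0 and 0 fell, in the same order.

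Of 90 genes for subunits of ligand-gated channels, proteins that pass ions when a transmitter binds, 58 were near-silent in EV. Members among them were 3, lgc-30, acr-9 and glr-7. lgc-30 had 25.3, 41.9, 42.9 and 34.4 normalized counts in mtch-1(RNAi) and 15.5, 18.5, 19 and 13.8 in EV. Beside them, 3 members were picked by their known roles after their values were seen, and they stand for no group. ser-1, a serotonin receptor gene, averaged 34.7 ± 6.70 in mtch-1(RNAi) and 17.3 ± 4.66 in EV, and lim-4, a homeobox gene of neuronal identity, 18.7 ± 9.61 in mtch-1(RNAi) and 5.91 ± 2.31 in EV (SD, n = 4 each). eat-5, an innexin gene of the pharynx, had 53.3, 46.5, 40.9 and 48.2 in mtch-1(RNAi) and 16.6, 12.7, 11.2 and 10.1 in EV. Of 18 neuron markers tested, 1 rose (unc-104, a kinesin gene, log2 fold change 0.39) and 1 fell (tdc-1, a tyrosine decarboxylase gene, -0.26), or 2 and 1 with the replicate number as a block. The whole neuron list summed to 14684 to 15350 normalized counts in mtch-1(RNAi) and 16059 to 16706 in EV, and without tdc-1 to 8255 to 8786 in mtch-1(RNAi) and 8569 to 8952 in EV, with overlap. Its median log2 fold change was 0.15, in the other direction from the sum. Of 9 pharynx markers tested with edgeR, 0 rose and phat-3 fell (-1.22). The other 8 had positive log2 fold changes of 0.04 to 0.82 that were not called, and the list median was 0.45. Of these, 2 were higher at an unadjusted p under 0.05, DESeq2 called 0 higher, and the replicate block gave 1.

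Cuticle and epidermal genes among the members were col-83, col-172 and col-131, which encode cuticle collagens, and cutl-27, a cuticlin-like gene. Of 189 cuticle collagen genes 91 were near-silent in EV, and of 35 cuticlin genes 19 were, where 2.26% of all near-silent genes met the limits. col-83 had 27.9, 32.6, 33.1 and 53.1 normalized counts in mtch-1(RNAi) and 14.5, 9.23, 11.2 and 6.46 in EV. grl-1, of the worm's hedgehog-related genes, averaged 33.6 ± 8.06 in mtch-1(RNAi) and 11.9 ± 2.51 in EV, and lin-48, a zinc-finger gene of epidermal development, 32.9 ± 9.16 in mtch-1(RNAi) and 15.4 ± 3.18 in EV (SD, n = 4 each). None of the 31 genes of a list for moulting and the larval cuticle was a member, but 13 of the 29 tested with edgeR rose and 0 fell, with a median log2 fold change of 0.40 beside 0.01 over all genes tested. No gene of the list was lower at an unadjusted p under 0.05 or by DESeq2, and 14 were higher by either. Without mtch-1(RNAi) replicate 1 or 4, or without EV replicate 2 or 3, 8 of them rose. mlt-11, a protease inhibitor gene, dpy-7, a furrow collagen gene, and dpy-17, a further collagen gene, rose by log2 fold changes of 0.83, 1.1 and 0.73 (SE 0.13, 0.20 and 0.11; edgeR adjusted p = 0.00096, 0.0019 and 0.00079). Of the other 186 cuticle collagens, 119 were tested, 15 rose (12.6%) and 5 fell (4.2%), where 10% of all genes tested rose and 13% fell.

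ptr-10, a patched-related gene used as a marker of glia, was the only member found in any of the 13 pathway and marker lists. It had 36.7, 40, 43.9 and 31.5 normalized counts in mtch-1(RNAi) and 11.4, 15, 21.3 and 19.4 in EV. Of the 4 glia markers tested, a further one was called higher, kcc-3, a cation-chloride cotransporter gene (log2 fold change 0.94, SE 0.16; edgeR adjusted p = 0.0015), and vap-1 and fig-1 had log2 fold changes of -0.33 and -0.06 and were not called. The 7 markers summed to 256 to 299 in mtch-1(RNAi) and 195 to 211 in EV, a sum that holds ptr-10, which the rule selected. The 6 others summed to at least 213 in a mtch-1(RNAi) sample and at most 196 in an EV sample, and kcc-3 was 1 of 3 of them called.

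Among 14 zygotic embryo markers tested, hch-1 (log2 fold change 1.23) and pha-4 (0.59) rose, while tbx-38 (-1.08) and pal-1 (-0.19) fell, and the list summed to 7993 to 8410 normalized counts in mtch-1(RNAi) and 8058 to 8624 in EV. Of 10 body wall muscle markers, act-4 rose and tnt-3 fell, and of 12 intestine markers, cpr-1 fell. With the replicate number as a block, 7 of the 10 muscle markers rose and 6 of the 12 intestine markers fell, against 15% and 17.1% of all genes tested. In the insulin-like list, ins-19 rose (1.07), as 1 of 18 tested, and in the oxidative stress list gsr-1 and prdx-2 fell (-0.48 and -0.31), as 2 of 18. Of 3 coelomocyte markers tested, 0 were called by edgeR or by DESeq2, and 0 had an unadjusted p under 0.05. The part of other cell types in the members' levels was not tested.

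**Figure D5:**
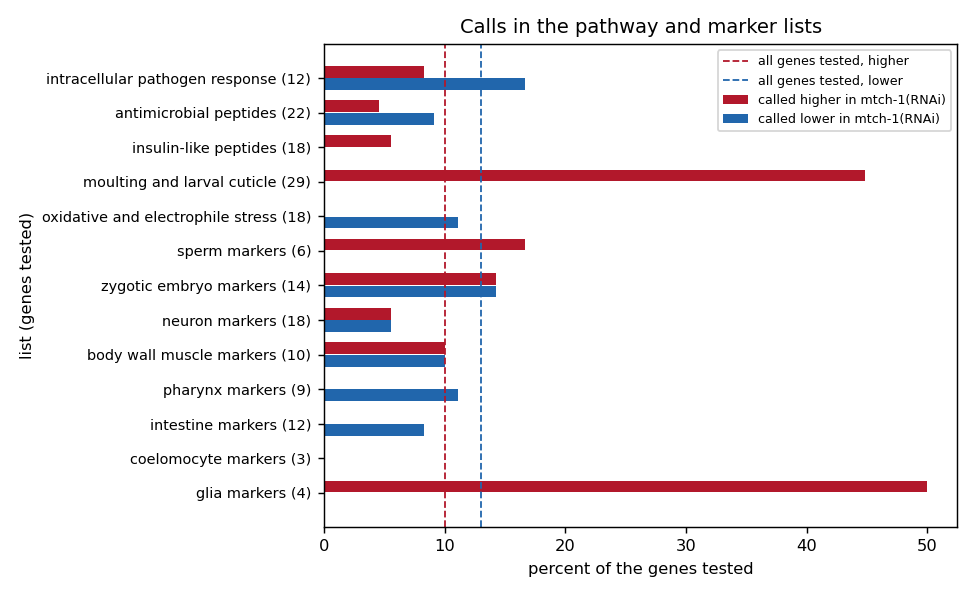
Percent of the tested genes of each list called higher (red) or lower (blue) in mtch-1(RNAi) over EV by edgeR, with the number tested in brackets and dashed lines at the 10% and 13% of all genes tested. The moulting list stands out with 13 of 29 genes called higher, while the glia bar rests on 2 of 4 genes, 1 of them the member ptr-10.

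Members were spread over the genome. Chromosomes I, II, III, IV, V and X held 22, 26, 16, 30, 36 and 23 members, or 14.4, 17, 10.5, 19.6, 23.5 and 15% of those matched to the annotation. The near-silent genes had 11.4, 18.5, 9.62, 15.8, 29.9 and 14.7% on the same chromosomes. The median gene length was 1062 bases for members, 964.5 bases for near-silent genes and 1152 bases for all protein-coding genes. Expressed genes that met the same fold and overlap limits from an EV mean of 20 or more, 75 in all, had a median length of 1203 bases.

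Counting only members that follow each other along a chromosome, 9 pairs lay within 10 kb, and 5 of these were adjacent or overlapping. svh-1 with C07G1.7, which lies inside it, is not among the 9, because C07G1.6 comes between them in order of start. Beside svh-1 with C07G1.6 and C07G1.6 with C07G1.7, the adjacent or overlapping pairs were ZK930.5 with ZK930.6, 436 bases apart, W03B1.3 with W03B1.1 and ZC13.2 with mam-1. W03B1.1 lies inside W03B1.3 on the opposite strand, and all 688 of its exon bases are shared with it. ZC13.2 and mam-1, also on opposite strands, share 144 exon bases. Reads from shared bases cannot be assigned to a single gene, so the genes of these overlapping pairs may not have risen separately. ZK930.6 had 18.3, 26, 19.5 and 18.7 normalized counts in mtch-1(RNAi) and 10.3, 3.46, 10.1 and 9.23 in EV. The pairs that lay further apart were Y73B3B.1 with set-28, C40A11.6 with C40A11.8, mul-1 with F49F1.8, and linc-1 with W09C5.12. Y73B3B.1 averaged 47.4 ± 9.34 in mtch-1(RNAi) and 10 ± 0.955 in EV, and set-28, which encodes a SET domain protein, 29.2 ± 5.28 in mtch-1(RNAi) and 8.37 ± 4.29 in EV (SD, n = 4 each).

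Flanking genes were called about as often as all genes. Of 294 protein-coding genes that were the nearest on either side of a member and no members themselves, 191 were tested, 17 rose (8.90%) and 23 fell (12%), with a median log2 fold change of 0.02. Over all genes tested the shares were 10% and 13% and the median 0.01. With the replicate number as a block, 32 flanking genes rose and 30 fell. The calls with the lowest adjusted p were mostly small falls of abundant genes, as of cox-4, a cytochrome c oxidase subunit gene beside W09C5.12 (log2 fold change -0.33, SE 0.04; edgeR adjusted p = 0.00015), and of glp-4, a valyl-tRNA synthetase gene beside Y87G2A.16 (-0.49, SE 0.07; edgeR adjusted p = 0.00059). F01D5.5, 4210 bases from the member F01D5.6, had 9.61, 7.44, 25.3 and 21.6 normalized counts in mtch-1(RNAi) and 82.8, 83.0, 98.5 and 85.8 in EV (log2 fold change -2.45, SE 0.31; edgeR adjusted p = 0.00023). F58H7.5, beside lgc-30, had 92.6, 68.8, 65.3 and 83.6 in mtch-1(RNAi) and 13.5, 32.3, 17.9 and 19.4 in EV (1.91, SE 0.26; edgeR adjusted p = 0.00035), and missed the limit of 20 with an EV mean of 20.8.

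Gene models limit what some values mean. The span of 52 members overlapped that of another gene in the table, on the opposite strand for 44, and 41 shared exon bases with that gene. Of the 153 members matched to the Ensembl annotation of WBcel235, 139 were protein-coding there, 13 were pseudogenes and 1, linc-1, was a long noncoding RNA, although the file calls all of them protein-coding. H34I24.3 and F36H2.5 were not matched. A symbol was given for 63 members.

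Several genes lay close to a limit of the rule. irg-5 and F16B4.5 had the highest EV means inside it, 19.9 and 18.9, and Y53G8AL.1 the lowest outside, 20.2. The lowest mtch-1(RNAi) means inside were those of ZK686.5 and T05E8.1, 10.1 and 10.2, and the highest outside those of R02E4.2 and Y65B4BL.6, 9.90 and 9.86. AH9.6 and F01D5.6 stood at 2.00 and 2.01 times the EV mean, against 1.99 for bus-18 and C54G4.5. F48C1.9 and col-172 just escaped an overlap, with lowest mtch-1(RNAi) values of 5.58 and 8.37 and highest EV values of 5.54 and 8.30. ahr-1 and F41C3.7 just overlapped, with 12.2 and 8.73 in mtch-1(RNAi) and 12.4 and 8.95 in EV. A single limit kept out 75 genes for the EV mean, 140 for the mtch-1(RNAi) mean, 74 for the fold and 99 for the overlap.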

How the data were processed

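RNA of 8 samples was sequenced, 4 mtch-1(RNAi) and 4 EV, grouped by their titles. The submitters' processing notes name WBcel235, DESeq2, featureCounts 1.5.0-p3 and HISAT2 2.0.5, and no strandedness or settings. The authors deposited whole-number counts per gene, a normalized signal (the count divided by a size factor for each sample), FPKM values, gene lengths in bases (another unit) and their own comparison of mtch-1(RNAi) over EV as log2 fold changes with p-values, raw and adjusted. The members and gene lists were chosen with earlier results of these data known.

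Members were found on the normalized signal. Counts were tested over all genes with edgeR 4.0.16 in R 4.3.3 (quasi-likelihood F test, TMM scaling, default expression filter), and a call is a Benjamini-Hochberg adjusted p under 0.05. A standard error (SE) is the log2 fold change over the root of its F value. The named genes followed a rule: mtch-1, the most abundant members and those with the largest ratios, neighbouring members, those nearest each limit, up to 4 per family, and called genes of lists and flanks with the lowest adjusted p. Others (clec-78, eat-5, ser-1, lim-4, grl-1, lin-48, cutl-27, tbx-38, hgrs-1, and list genes that were not called) were chosen after their values were seen. Alternatives were other scaling, DESeq2 1.42.0, other count filters, a replicate block, and each sample left out. Same-numbered samples deviated together, with correlations of 0.342, 0.205, 0.242 and 0.185, all above the limit of 0.1, so the numbers may pair the samples. Differently numbered samples were not compared in this way, and the labels name no shared day or plate. Calls, SEs and adjusted p-values come from the fit that ignores such pairing, except where the replicate block is named. Replicates differed by more than sampling noise, with a chi-square per degree of freedom of 6.72 to 15.4.

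Ensembl release 115 names and coordinates matched 20546 of 20871 genes. On simulated counts for mtch-1(RNAi) against EV (13315 genes tested), recovery by edgeR was 62% at a log2 change of 1, 98% at 2 and 100% at 3 and 4, and 7.22% of its calls were false.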

Additional observations from a re-analysis of the deposited data

Results flagged for a closer look

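For each named member, and for the summed members with and without C07G1.7, the 4 samples of each group were examined for a highest or lowest value that lay far from the other 3. Of 120 groups of 4, 11 had such a sample, where chance gives about 1 in 20 for normally distributed values. Many groups here hold low counts, and the limits selected the members on these values, so that share is only a rough guide. In mtch-1(RNAi), W09B7.2 had 74.2 normalized counts in replicate 1, and nhr-127 had 14.8 there. Replicate 2 was low for clec-227, at 39.1, and high for ZK930.6, at 26. Replicate 4 was high for linc-1, at 20.6, and low for C40A11.8, at 14.7. In EV, replicate 4 was high for alg-3, at 4.61, and for set-28, at 14.8, and low for mul-1, at 6.46. EV replicate 2 was low for ZK930.6, at 3.46, and EV replicate 3 held the only count of C07G1.6, at 1.12. Apart from W09B7.2, these are small absolute differences in low counts, and their causes were not tested.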

How the results depend on the processing

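The number of members follows the limits. It was 155 with the authors' size factors and 156 with TMM scaling, which shared 155 genes. It was 183 with an EV mean under 40, 100 with an EV mean under 10, 69 at 3 times the EV mean, 97 with an mtch-1(RNAi) mean of at least 20, and 160 to 221 without 1 sample, as fewer samples make an overlap rarer. The mirrored limits gave 27 genes with TMM scaling and 33 to 47 without 1 sample (43 when mtch-1(RNAi) replicate 3 was left out, 47 when its replicate 4 was); these were added after seeing the data. Called members numbered 117, against 118 with RLE scaling, 108 with DESeq2, 130 with no count filter, 58 where a gene needed 1 CPM in 4 samples, which drops low genes, and 95 to 111 without 1 sample. Over all genes, the replicate block gave 1983 rises and 2264 falls; with it, flanking genes called higher were 32, and list genes called numbered 44 higher (23 without it) and 21 lower (12 without it); the cause was not tested. Among named genes the block gave acr-9 a call and took that of AH9.6, and beside the lists given above it changed no other count by over 1.5 times except single calls in the insulin-like, oxidative stress and intestine lists. Leaving out a sample gave 12 to 17 flanking genes higher and 17 to 23 lower, 16 to 28 list genes higher and 11 to 14 lower, and 1011 to 1261 of all genes higher and 1219 to 1632 lower. Within single lists it moved antimicrobial genes higher over 1 to 4, muscle markers higher over 0 to 5 and intestine markers lower over 1 to 3. Of 1023 fold changes of named genes under alternatives, 954 stayed on their side of the threshold, 67 lost the call, 2 gained it and 0 reversed. Of 46 named members tested, 7 lost the call under at least 1 alternative. Low counts limit precision: most members rest on under 50 reads per sample.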
